A study of Mus musculus with 16 samples.

Results

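Kruppel-like factors are zinc finger transcription factors, and the 10 members described here (Klf2, Klf3, Klf4, Klf5, Klf6, Klf7, Klf9, Klf10, Klf13 and Klf15) were chosen by gene symbol from the 55367 genes listed for each library. They were measured by RNA-seq in mIMCD3 cells, a mouse cell line derived from the inner medullary collecting duct, the kidney segment that is exposed to the most concentrated extracellular fluid. The study asked how Nrf2, the transcription factor that drives antioxidant genes, alters the response of these cells to hyperosmotic stress. The 16 libraries formed 8 groups of 2 biological replicates. In 6 of the groups the cells were wild type (WT). WT cells received the solvent DMSO or 10 µM sulforaphane (SFN), an activator of Nrf2, for 5 h. They were then collected under isosmotic conditions, after 1 h in hyperosmotic medium of 600 mOsm, or after 6 h of hyperosmotic stress, for which the labels give no osmolality. The other groups were Nrf2-/- cells treated with SFN and collected under isosmotic conditions or after 1 h of stress. The Nrf2-/- cells were made with Cas9 and a single guide RNA delivered by lentivirus and selected as a stable line, and whether that line was a pool or a clone is not given in the sources used here. Nrf2-/- cells with DMSO were not analysed here, so the effect of SFN cannot be separated from genotype in them.

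Kruppel-like factors bind GC-rich and CACCC-type sites through zinc fingers at the C terminus, and differ in their N-terminal regions. Klf2, Klf4, Klf5, Klf6 and Klf7 act largely as activators that recruit histone acetyltransferases. Klf3 recruits the corepressor CtBP, and Klf9, Klf10 and Klf13 bind the corepressor Sin3A. Several members are immediate or delayed early genes that respond to serum, shear, hormones or injury, and in the kidney Klf4 and Klf15 are known from podocytes and Klf5 from the collecting duct.

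The genes lie on separate chromosomes, and the promoters are shown because groups of members moved together. Positions are from GENCODE M21 on GRCm38 (mm10). The activators are Klf2 (chromosome 8, 72319033 to 72321656, plus strand), Klf4 (chromosome 4, 55527143 to 55532466, minus), Klf5 (chromosome 14, 99298691 to 99315036, plus), Klf6 (chromosome 13, 5861482 to 5870394, plus) and Klf7 (chromosome 1, 64029447 to 64122282, minus). Klf3, the CtBP-binding member, lies on chromosome 5 (64803388 to 64832901, plus). The Sin3A-binding members are Klf9 (chromosome 19, 23141226 to 23168134, plus), Klf10 (chromosome 15, 38291463 to 38300706, minus) and Klf13 (chromosome 7, 63886351 to 63938915, minus). Klf15 lies on chromosome 6 (90462576 to 90475238, plus). Promoter sequence from RefSeq (GRCm38.p6) was found for 8 of the 10 members, all but Klf5 and Klf10. The 250 bases before the RefSeq start are printed for Klf2, Klf4, Klf6 and Klf13, which differed in their response. They are written 5′ to 3′ on the gene's strand, with GC boxes (GGGCGG or its complement) in capitals. The RefSeq start can differ from the GENCODE start, and the windows of Klf2, Klf3, Klf6 and Klf7 reach into the GENCODE gene. Klf2 (chr8:72318812-72319061, plus strand) was lower at 1 h and 6 h of stress in WT cells with DMSO, Klf4 (chr4:55532476-55532725, minus strand) was higher at both, Klf6 (chr13:5861239-5861488, plus strand) was lower after stress in DMSO cells and with SFN alone under isosmotic conditions, and Klf13 (chr7:63938916-63939165, minus strand) was higher at 6 h.
Klf2: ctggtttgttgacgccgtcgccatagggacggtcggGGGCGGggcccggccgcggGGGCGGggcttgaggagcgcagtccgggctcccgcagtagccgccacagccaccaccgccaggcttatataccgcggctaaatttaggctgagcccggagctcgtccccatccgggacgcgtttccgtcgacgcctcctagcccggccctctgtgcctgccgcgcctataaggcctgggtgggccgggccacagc
Klf4: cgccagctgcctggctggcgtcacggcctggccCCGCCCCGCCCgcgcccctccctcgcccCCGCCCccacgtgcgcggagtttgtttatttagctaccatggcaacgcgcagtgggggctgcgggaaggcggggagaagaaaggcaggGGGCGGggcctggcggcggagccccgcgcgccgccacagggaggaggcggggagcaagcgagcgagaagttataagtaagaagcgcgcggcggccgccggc
Klf6: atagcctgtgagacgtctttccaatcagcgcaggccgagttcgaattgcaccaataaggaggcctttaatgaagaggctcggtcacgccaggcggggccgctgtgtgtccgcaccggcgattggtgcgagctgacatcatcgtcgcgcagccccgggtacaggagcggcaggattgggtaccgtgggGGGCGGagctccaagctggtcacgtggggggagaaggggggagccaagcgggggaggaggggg
Klf13: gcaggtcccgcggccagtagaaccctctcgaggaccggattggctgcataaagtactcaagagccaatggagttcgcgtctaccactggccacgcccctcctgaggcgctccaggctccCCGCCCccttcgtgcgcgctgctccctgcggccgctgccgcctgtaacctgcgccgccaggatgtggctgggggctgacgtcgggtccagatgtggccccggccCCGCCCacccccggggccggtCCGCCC

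These promoters were rich in G and C, at 71.2% for Klf2, 74.0% for Klf4, 64.8% for Klf6 and 71.6% for Klf13, against a median of 52.4% over 32851 promoter windows of the same length. A GC box on either strand was present in 7 of the 8 member windows, all but Klf9, and in 32.7% of all windows. Klf4 carried 4 GC boxes, of which the pair closest to its upstream end overlap, and Klf2 carried a pair. The core of the antioxidant response element bound by Nrf2, searched as TGACNNNGC on both strands, was present in the windows of Klf3, Klf6 and Klf15 and in 10.2% of all windows. The short form TGACG of the cAMP response element was present in 5 member windows (17.8% of all), and its full form TGACGTCA, which contains it, in 0 of 8 (1.55% of all). The E-box CACGTG, which reads the same on both strands, was present in 3 (Klf4, Klf6 and Klf15, 6.02% of all), and CCAAT in 4 (Klf6, Klf9, Klf13 and Klf15, 33.8% of all). A MEF2 site was present in 1 window, that of Klf2 (2.92% of all), which also held the only match to the TATA box (11.5% of all). That TATA match lies on the strand opposite to the gene, at -131 to -125 from the RefSeq start. The CArG box was not present in these 8 windows (1.47% of all). For the tonicity element bound by NFAT5, the pattern searched had a longer spacer than the known consensus. That pattern was not present in these 8 windows (4.57% of all). It can miss the element itself, so whether these promoters hold a tonicity element was not tested. All motif results given here are matches of letters, and binding was not measured.

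Total counts per library lay between 34484296 and 50774875, and levels are given as counts per 1000000 counts (CPM) after TMM normalization. Each comparison was a contrast in 1 edgeR quasi-likelihood fit over all 16 libraries, with adjusted p under 0.05 over 19509 genes tested. The 2 libraries per group leave few degrees of freedom, and an exact two-sided permutation test of 2 against 2 cannot go below 0.333. The replicates of Nrf2-/- cells at 1 h stood apart, with a coefficient of biological variation of 0.348 against 0.0393 to 0.128 in the other 7 groups, and that wide pair entered the error of every comparison. For this reason, WT comparisons are also given from a fit to the 12 WT libraries. Nfe2l2, the gene of Nrf2, was at 64.0 to 149 CPM in WT and 11.0 to 11.6 CPM in Nrf2-/- libraries. Its targets Nqo1, Srxn1 and Hmox1 were lower in Nrf2-/- than in WT cells with SFN, whereas Slc7a11 was higher. Of 13 markers of collecting duct and kidney epithelium, 8 (among them Krt8, Krt18, Cdh1 and Pax8) were at 1 CPM or more in every library, and the water channels Aqp2 and Aqp3 and the vasopressin receptor Avpr2 were under 1 CPM in every library. Markers of fibroblasts, endothelium, immune cells, proximal tubule, thick ascending limb and podocytes summed to at most 13.9 CPM per list in any library. Within these, Ptprc, a leukocyte marker, rose from 0.0953 and 0.133 CPM in isosmotic WT cells with DMSO to 5.68 and 4.08 CPM at 6 h, and Pecam1, an endothelial marker, rose from 0 and 0.0884 to 3.56 and 3.06 CPM. Pecam1 was already higher at 1 h, at 0.430 and 0.530 CPM (edgeR adjusted p = 0.0119). So were 1 of 3 fibroblast markers tested and 1 of 2 proximal tubule markers, against 0 of 3 immune markers. Over all genes, 7.1% were higher at 1 h and 23.9% at 6 h. At 6 h, 2 of 3 fibroblast, 2 of 3 endothelial, 2 of 3 immune and 2 of 2 proximal tubule markers were higher. Genes with any count also rose, from 21349 and 20729 in the isosmotic WT DMSO libraries to 25115 and 24274 at 6 h. The part of these markers in the changes at 1 h and 6 h was not tested.

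In isosmotic WT cells with DMSO, Klf6, a growth-restraining factor induced by injury, had the highest level, at 314 and 284 CPM, and per kilobase of exon it was also the highest at 68.1 CPM. Klf10, an early gene of the TGF-beta response, followed at 36.9 CPM per kilobase and Klf5, a promoter of epithelial proliferation, at 25.4. Klf7, Klf2, Klf3, Klf13, Klf4 and Klf9 lay between 9.02 (Klf7) and 4.10 (Klf9) CPM per kilobase. Klf15, known for its control of gluconeogenesis and amino acid metabolism, had 30 counts in all 16 libraries together, with 8 libraries at 0 and no library above 6 counts. A count of 0 allows up to 3 counts, or 0.0591 to 0.087 CPM in those libraries, counting error only. It did not pass the filter on low counts and was not tested, so 9 of the 10 members were tested. In all counts under 11, 58.0% to 68.5% were even numbers, so that a count may not be an independent fragment and the counts of Klf15 may overstate its molecules. Klf3 shares exon sequence with the antisense gene Gm20033 and Klf7 with Gm13748 and Gm26649. The strand setting of the counting is not given in the sources used here, so their reads cannot be told apart, but Gm20033 and Gm13748 had a mean of 17.9 and 1.06 counts per library.

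**Figure D1:**
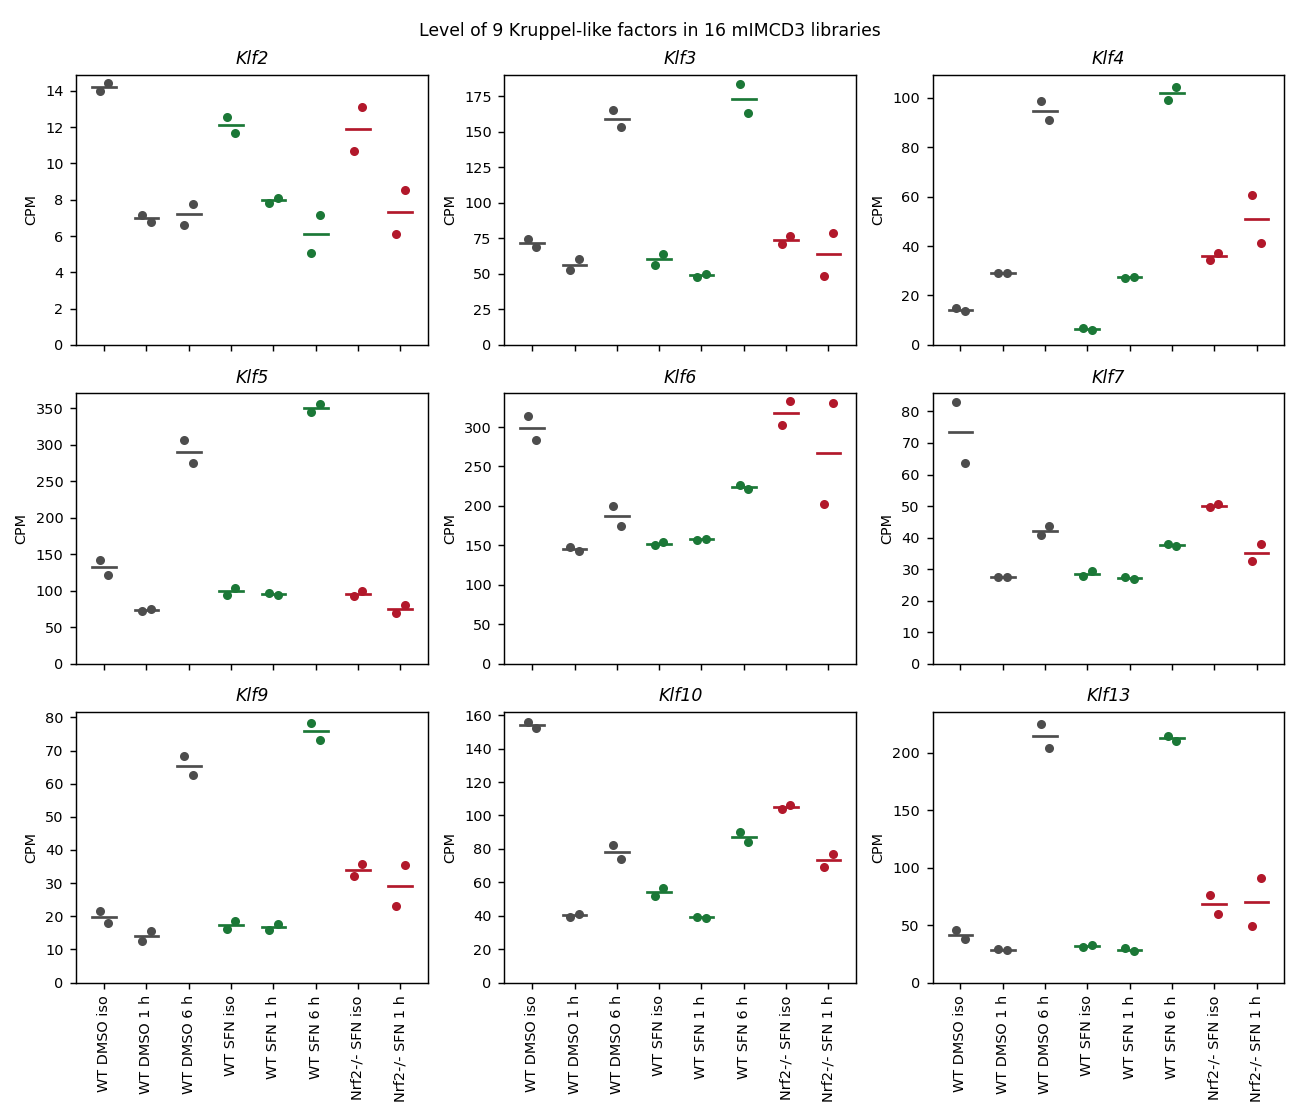
Level of the 9 Kruppel-like factors tested, in CPM after TMM normalization (vertical axes from 0), in each of the 8 groups (horizontal axes). Points are libraries, horizontal lines are the means of 2, and colours mark WT with DMSO (grey), WT with SFN (green) and Nrf2-/- with SFN (red). Klf10 and Klf7 are highest in isosmotic WT cells with DMSO, and Klf13, Klf9, Klf5, Klf4 and Klf3 are highest in the 6 h groups.

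After 1 h of hyperosmotic stress in WT cells with DMSO, 5 of the 9 members tested fell and 1 rose. The share of all genes called was 11.2%, with 4.11% lower and 7.1% higher. The median log2 fold change of the 9 members was -0.84, against 0.0016 for all genes tested. In bulk RNA, fewer cells that express a gene and less RNA per cell cannot be told apart. Klf10 was at 156 and 152 CPM under isosmotic conditions and 39.5 and 41.1 CPM at 1 h. Both stressed libraries were thus far below both isosmotic ones, a 3.83-fold fall (log2 fold change -1.94, SE 0.10, edgeR adjusted p = 9.90e-08). Klf7, known from neurons for axon growth, was at 82.9 and 63.8 CPM before and 27.4 and 27.3 CPM after (2.68-fold lower, log2 -1.42, SE 0.13, edgeR adjusted p = 5.84e-06). The isosmotic pair was wide for Klf7, but its lower library was still above both stressed libraries.

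Klf6 went from 314 and 284 CPM to 148 and 143 CPM (log2 -1.04, SE 0.16, edgeR adjusted p = 0.000900). Klf2, a factor of endothelial quiescence, went from 14.0 and 14.4 CPM to 7.17 and 6.78 CPM (log2 -1.03, SE 0.20, edgeR adjusted p = 0.00350). Klf5 went from 143 and 122 CPM to 72.8 and 74.9 CPM (log2 -0.84, SE 0.11, edgeR adjusted p = 0.000171). In each of these the groups did not overlap. The same held for Klf13, Klf9 and Klf3, which did not pass the test, and the share of all genes so separated was not counted. Among the members called, Klf4, one of the factors used to reprogram cells to pluripotency and a regulator of epithelial barriers, was the only one that rose. It rose from 14.7 and 13.9 CPM to 29.3 and 29.0 CPM (2.04-fold, log2 1.03, SE 0.15, edgeR adjusted p = 0.000414). The remaining members did not pass the test. Klf13 had a log2 fold change of -0.54 (SE 0.21, edgeR adjusted p = 0.121), Klf9 of -0.51 (SE 0.18, 0.0915) and Klf3 of -0.35 (SE 0.17, 0.232). In the fit to the 12 WT libraries, all 9 members tested were called, with 22.9% of all genes called.

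After 6 h of stress in WT cells with DMSO, all 9 members tested differed from isosmotic cells, 5 higher and 4 lower. At this time 45.9% of all genes were called, 23.9% higher and 22% lower. The median log2 fold change of the 9 members was 1.14, against 0.05 for all genes. The Sin3A-binding members Klf13 and Klf9 and the activators Klf4 and Klf5 were among those that rose, together with the CtBP-binding Klf3. Klf4 reached 98.7 and 91.0 CPM, 6.64-fold above the isosmotic level (log2 2.73, SE 0.15, edgeR adjusted p = 7.93e-09). Klf13, known as a regulator of chemokine expression in T cells, went from 45.4 and 38.0 CPM to 225 and 204 CPM (5.16-fold, log2 2.37, SE 0.21, edgeR adjusted p = 9.89e-07). Klf9, a direct target of glucocorticoid and thyroid hormone receptors, went from 21.6 and 17.9 CPM to 68.2 and 62.6 CPM (3.32-fold, log2 1.73, SE 0.18, edgeR adjusted p = 2.94e-06). These are the largest increases among the members, and for Klf13 and Klf9 they followed 1 h levels that were not above the isosmotic ones.

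Klf3, which restrains adipocyte and erythroid gene expression, went from 74.7 and 68.8 CPM to 165 and 153 CPM at 6 h (log2 1.15, SE 0.17, edgeR adjusted p = 7.01e-05). Klf5 reached 306 and 275 CPM (log2 1.14, SE 0.11, edgeR adjusted p = 1.22e-06). Klf5 was thus below its isosmotic level at 1 h and above it at 6 h. The members that fell at 6 h were Klf10 at 82.3 and 74.1 CPM (log2 -0.98, SE 0.10, edgeR adjusted p = 1.66e-06), Klf2 at 6.61 and 7.78 CPM (log2 -0.98), Klf7 at 40.8 and 43.5 CPM (log2 -0.80) and Klf6 at 200.4 and 174 CPM (log2 -0.67, edgeR adjusted p = 0.00347). The 1 h and 6 h comparisons share the same 2 isosmotic libraries.

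Between 1 h and 6 h of stress, which compares separate libraries, 7 of the 9 members rose and none fell at the threshold, with 42.4% of all genes called, 20.4% higher and 22% lower. The rises were 7.51-fold for Klf13 (log2 2.91, SE 0.22), 4.72-fold for Klf9, 3.94-fold for Klf5, 3.26-fold for Klf4 and 2.82-fold for Klf3. They were smaller for Klf10 (1.94-fold, log2 0.96, SE 0.10, edgeR adjusted p = 2.22e-06) and Klf7 (1.54-fold, log2 0.62, edgeR adjusted p = 0.000912). Klf10 and Klf7 therefore lay at 6 h between their 1 h and their isosmotic levels. Klf6 had a log2 fold change of 0.36 (edgeR adjusted p = 0.0881) and was called in the fit to the 12 WT libraries, with 54.4% of all genes. Klf2 stood at 7.17 and 6.78 CPM at 1 h and 6.61 and 7.78 CPM at 6 h, and these groups overlap. The median log2 fold change of all genes depended on the scaling. At 6 h against isosmotic it was 0.05 with TMM, -0.12 with library totals alone and 0.14 with relative log expression (RLE) factors in edgeR. At 6 h against 1 h these medians were -0.00076, -0.22 and 0.05, at 6 h with SFN they were 0.09, -0.13 and 0.16, and for Nrf2-/- against WT cells at 1 h they were -0.02, -0.12 and 0.01. The directions given for members that passed the test were the same under both scalings.

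**Figure D2:**
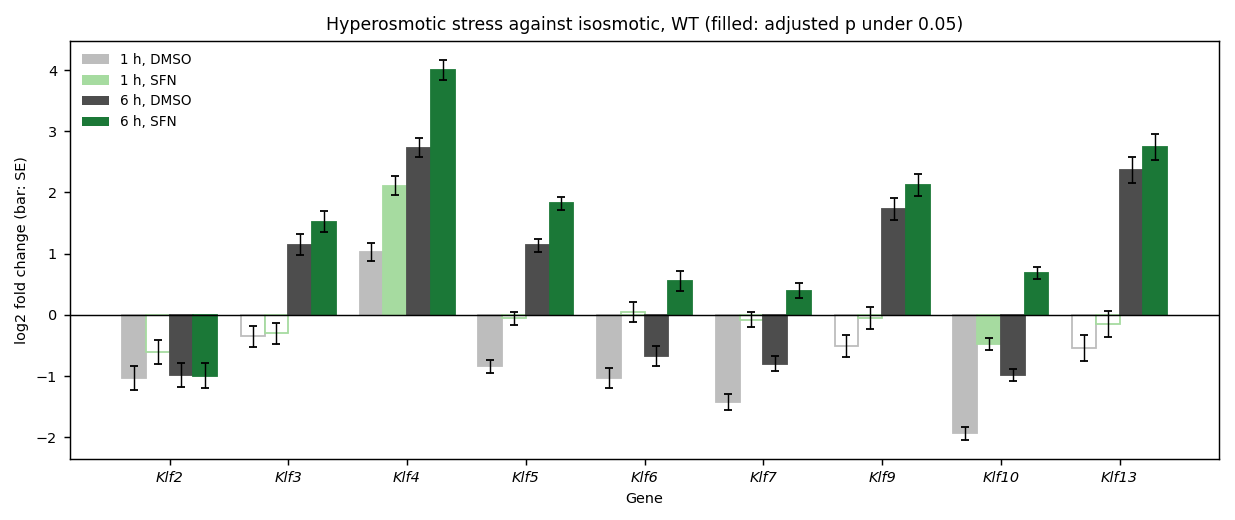
Log2 fold change (vertical axis) of 9 Kruppel-like factors (horizontal axis) after hyperosmotic stress against isosmotic WT cells of the same pretreatment. Bars are edgeR estimates with their SE, grey for DMSO and green for SFN, light for 1 h and dark for 6 h, and open bars did not pass adjusted p under 0.05. With DMSO, Klf10, Klf7 and Klf6 are below 0 at both times (-1.94, -1.42 and -1.04 at 1 h), and Klf4 is above 0 in all 4 comparisons.

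SFN alone lowered 4 of the 9 members tested in isosmotic WT cells and raised none, with 2.84% of all genes called, 1.76% lower and 1.09% higher. The median log2 fold change of the 9 members was -0.41, against 0 for all genes, and all 9 estimates were below 0. Klf10 was at 51.7 and 56.7 CPM with SFN against 156 and 152 CPM with DMSO (2.85-fold lower, log2 -1.51, SE 0.10, edgeR adjusted p = 1.26e-06). Klf7 was at 27.8 and 29.4 CPM against 82.9 and 63.8 CPM (2.57-fold lower, log2 -1.36, SE 0.12, edgeR adjusted p = 1.85e-05). Both SFN libraries lay well below both DMSO libraries for each gene.

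Klf4 was at 6.70 and 6.00 CPM with SFN against 14.7 and 13.9 CPM (2.25-fold lower, log2 -1.17, SE 0.15, edgeR adjusted p = 0.000480). Klf6 was at 149.9 and 154 CPM against 314 and 284 CPM (1.97-fold lower, log2 -0.98, SE 0.16, edgeR adjusted p = 0.00369). SFN and 1 h of stress thus each went with lower Klf10, Klf7 and Klf6, but Klf4 fell with SFN and rose with stress. Both comparisons use the same 2 isosmotic DMSO libraries as reference, so an unusual value in those libraries would enter both. Klf5 had a log2 fold change of -0.41 (SE 0.11, edgeR adjusted p = 0.0548), Klf13 of -0.39 (0.395), Klf3 of -0.25 (0.508), Klf2 of -0.23 (0.597) and Klf9 of -0.18 (0.672). With the 12 WT libraries alone, Klf5 and Klf13 were also called, and 15.2% of all genes were.

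Under hyperosmotic stress, no difference between SFN and DMSO passed the test for any member. At 1 h, 0 of 9 members were called by edgeR (1 at an unadjusted p under 0.05, and 0 by DESeq2), with 0.0923% of all genes called by edgeR, all higher, and 0.152% by DESeq2. At 6 h, 0 of 9 were called (1 at an unadjusted p under 0.05, and 0 by DESeq2), with 0.041% of all genes by edgeR, all higher, and 0.0629% by DESeq2. Klf10 was at 39.3 and 38.6 CPM with SFN at 1 h against 39.5 and 41.1 CPM with DMSO. The approximate 95% interval of its log2 difference (1.96 SE on either side) ran from -0.24 to 0.14. With few degrees of freedom, this and the intervals below are somewhat too narrow. Klf7 was at 27.5 and 26.8 CPM against 27.4 and 27.3 CPM (interval -0.26 to 0.23). Klf4 was at 27.3 and 27.6 CPM against 29.3 and 29.0 CPM (interval -0.37 to 0.20) and Klf6 at 156 and 159 CPM against 148 and 143 CPM (interval -0.21 to 0.43). For Klf10, Klf7, Klf4 and Klf6, these intervals do not reach the difference that SFN made under isosmotic conditions.

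The largest estimate at 1 h was that of Klf5, at 96.8 and 94.2 CPM with SFN against 72.8 and 74.9 CPM with DMSO (log2 0.37, SE 0.11, edgeR adjusted p = 0.862). Klf5 alone was called in the fit to the 12 WT libraries, where 0.533% of all genes were, and in the fit to the 4 libraries compared, where 4.95% were. At 6 h the estimates ran from -0.24 (Klf2) to 0.27 (Klf5, 345 and 356 CPM against 306 and 275 CPM), and Klf5 was called in the fit to the 4 libraries compared, with 0.623% of all genes.

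**Figure D3:**
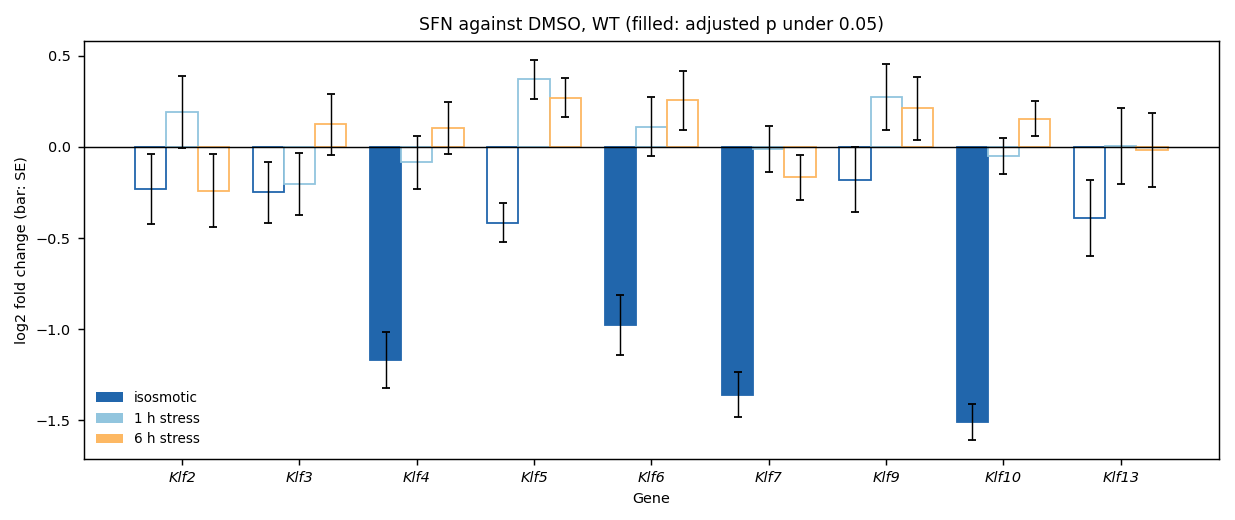
Log2 fold change of 9 Kruppel-like factors with SFN against DMSO in WT cells (vertical axis), under isosmotic conditions (dark blue), after 1 h (light blue) and after 6 h of stress (orange). Bars are edgeR estimates with their SE, and filled bars passed adjusted p under 0.05. Klf10 (-1.51), Klf7 (-1.36), Klf4 (-1.17) and Klf6 (-0.98) are filled under isosmotic conditions, and no bar is filled under stress.

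The same data read as the response to stress in SFN-treated cells gave fewer early changes. At 1 h, 2 of 9 members were called, 1 higher and 1 lower, with 9.52% of all genes, 5.94% higher and 3.58% lower. Klf4 rose from 6.70 and 6.00 CPM to 27.3 and 27.6 CPM (4.33-fold, log2 2.11, SE 0.15, edgeR adjusted p = 2.31e-06). Klf10 fell from 51.7 and 56.7 CPM to 39.3 and 38.6 CPM (1.39-fold, log2 -0.48, SE 0.10, edgeR adjusted p = 0.00609). Its call was lost without either SFN 1 h library or without replicate 2 of the isosmotic SFN libraries, with adjusted p up to 0.0920. Klf2 had a log2 fold change of -0.60 (edgeR adjusted p = 0.0677). Klf3 was at 56.3 and 64.3 CPM before and 47.7 and 50.2 CPM at 1 h, Klf6 at 149.9 and 154 CPM before and 156 and 159 CPM at 1 h, and Klf7 at 27.8 and 29.4 CPM before and 27.5 and 26.8 CPM at 1 h. In the fit to the 12 WT libraries, 4 members were called, Klf2 and Klf3 in addition, with 18.3% of all genes. With only the 4 libraries compared 4 were also called, with 15.9% of all genes.

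At 6 h with SFN, 8 members rose and Klf2 fell, with 47.6% of all genes called, 24.7% higher and 22.9% lower. Klf4 rose 16.1-fold to 99.1 and 104.5 CPM (SE of the log2 fold change 0.16, edgeR adjusted p = 3.03e-10), which was the largest change of a member in any comparison of a stress time with isosmotic cells. Klf13 rose 6.69-fold to 214 and 211 CPM, Klf9 4.35-fold to 78.3 and 73.3 CPM, Klf5 3.53-fold to 345 and 356 CPM and Klf3 2.88-fold to 184 and 163 CPM. Klf10 rose 1.61-fold to 90.3 and 83.9 CPM (log2 0.68, edgeR adjusted p = 4.34e-05). Klf6 rose 1.47-fold (log2 0.56, edgeR adjusted p = 0.0109) and Klf7 1.31-fold (log2 0.39, edgeR adjusted p = 0.0170). The call of Klf6 was lost without replicate 1 at 6 h or either isosmotic SFN library, and that of Klf7 without any 1 of the 4 libraries compared. Scaled by library totals, Klf6 (log2 0.33) and Klf7 (log2 0.16) were not called.

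The difference between the SFN effect under stress and that under isosmotic conditions was tested directly, which is the same as the difference between the stress response with SFN and with DMSO. At 1 h, 4 of 9 members differed, all with a positive difference, against 0.559% of all genes, 0.487% higher and 0.0718% lower. The differences were 1.46 for Klf10 (log2, SE 0.14, edgeR adjusted p = 0.000159), 1.35 for Klf7 (SE 0.18, 0.00147), 1.09 for Klf4 (SE 0.21, 0.0324) and 0.79 for Klf5 (SE 0.15, 0.0324). Klf6 was at 1.09 (SE 0.23, 0.0517). The calls of Klf4 and Klf5 were near the threshold, and were lost without any 1 of 14 and 13 of the 16 libraries, which left 2 or 3 members called. Both were also lost with library totals alone. With the 12 WT libraries, 5 members differed, Klf6 in addition, with 3.09% of all genes.

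At 6 h, 4 members differed, Klf10 by 1.66 (log2, SE 0.14, edgeR adjusted p = 2.76e-05), Klf4 by 1.27 (SE 0.21, 0.00690), Klf6 by 1.23 (SE 0.23, 0.0185) and Klf7 by 1.19 (SE 0.18, 0.00283), against 0.759% of all genes, 0.595% higher and 0.164% lower. Klf5 was at 0.68 (0.0578). The call of Klf6 was lost without any 1 of 7 of the 16 libraries, where its difference ran from 1.13 to 1.33 over all libraries left out. That of Klf4 was lost without replicate 2 of the DMSO 6 h libraries or replicate 2 of the isosmotic SFN libraries. With the 12 WT libraries, 5 were called, with 4.24% of all genes. Klf10, Klf7 and Klf6 stood below their untreated level in SFN cells before stress, fell little or not detectably at 1 h, and at 6 h were above their own isosmotic SFN level, while in DMSO cells they were below the isosmotic DMSO level at both times.

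In Nrf2-/- cells with SFN under isosmotic conditions, 6 of the 9 members were higher than in WT cells with SFN and none was lower, with 34.1% of all genes called, 15.7% higher and 18.4% lower. The median log2 fold change of the 9 members was 0.95, against -0.00091 for all genes. Klf4 was at 34.4 and 37.2 CPM in Nrf2-/- against 6.70 and 6.00 CPM in WT cells (5.64-fold higher, log2 2.50, SE 0.16, edgeR adjusted p = 1.61e-08). Klf4 in Nrf2-/- cells was thus also above both isosmotic DMSO libraries of WT cells (14.7 and 13.9 CPM). Klf6 was at 303 and 333 CPM against 149.9 and 154 CPM (2.10-fold, log2 1.07, SE 0.16, edgeR adjusted p = 0.000137). Klf10 was at 104 and 106 CPM against 51.7 and 56.7 CPM (1.94-fold, log2 0.95, SE 0.10, edgeR adjusted p = 2.49e-06).

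Klf13 was 2.14-fold higher (76.5 and 59.6 CPM, log2 1.10, edgeR adjusted p = 0.000935), Klf9 1.95-fold (32.1 and 35.8 CPM, log2 0.96) and Klf7 1.75-fold (49.6 and 50.5 CPM, log2 0.81). Klf7 and Klf10 in Nrf2-/- cells lay between the WT levels with SFN and with DMSO. Klf3 had a log2 fold change of 0.29 (edgeR adjusted p = 0.208). Klf2 (10.7 and 13.1 CPM) and Klf5 (92.8 and 99.1 CPM) overlapped the WT SFN libraries. The Nrf2-/- line differed from WT in 34.1% of the genes tested, and epithelial markers moved in both directions. Of the 12 collecting duct markers tested, 3 were higher and 4 lower, with Epcam at 284 against 48.8 CPM and Pax2 at 26.9 against 142 CPM. The part of such line differences in the Klf levels was not tested, and loss of Nrf2 and other differences between the lines cannot be told apart.

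After 1 h of stress, 6 members were higher and Klf5 was lower in Nrf2-/- than in WT cells with SFN, with 31.5% of all genes called, 15.3% higher and 16.2% lower. The 2 Nrf2-/- libraries of this group stood apart from each other. For Klf13 they were at 49.4 and 91.0 CPM, against 29.8 and 27.5 CPM in WT (log2 1.29, SE 0.21, edgeR adjusted p = 0.000301). For Klf6 they were at 203 and 330.2 CPM against 156 and 159 CPM (log2 0.76), and for Klf4 at 60.8 and 41.2 CPM against 27.3 and 27.6 CPM (log2 0.89). Klf13, Klf6 and Klf4 were called higher, as was Klf10 (69.4 and 77.1 CPM, log2 0.91). Klf9 (23.0 and 35.4 CPM, log2 0.80) and Klf7 (32.4 and 38.0 CPM, log2 0.38, edgeR adjusted p = 0.0321) were also higher. Both Nrf2-/- libraries were above both WT libraries for these 6 members, and the share of all genes separated in this way was not counted. The call of Klf7 was lost without any 1 of 5 of the 16 libraries, and that of Klf5 without any 1 of 3. Klf5 was at 69.3 and 80.8 CPM against 96.8 and 94.2 CPM (log2 -0.35, edgeR adjusted p = 0.0237). Without replicate 1 of this pair 7 members were called, all higher, with 8917 of all genes called in place of 6154, and without replicate 2, 6 members and 6071 genes were called. With only the 4 libraries compared, 1 member was called, Klf10, with 10.1% of all genes.

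**Figure D4:**
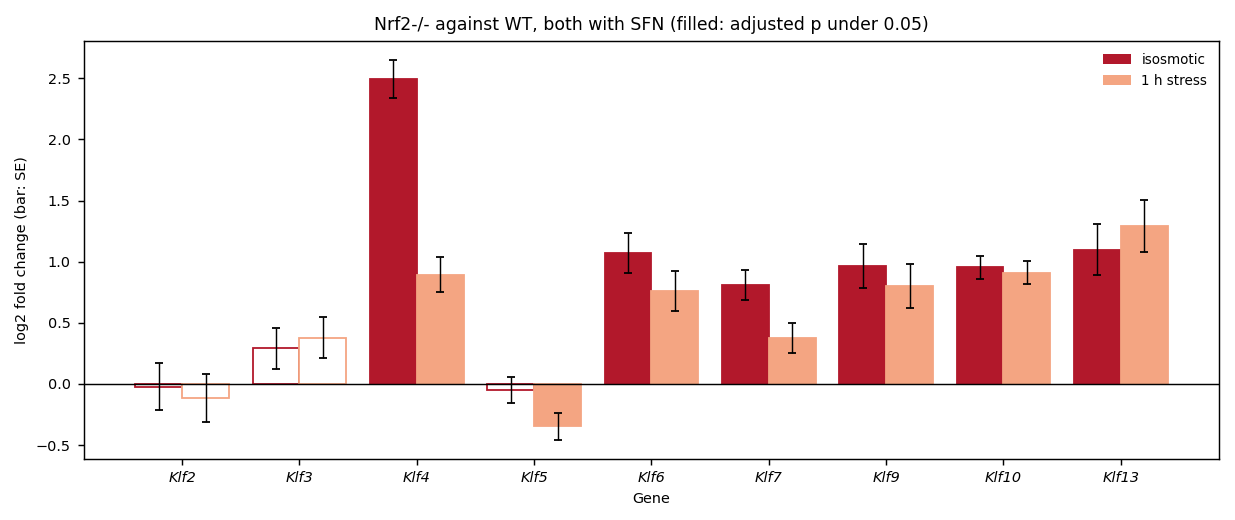
Log2 fold change of 9 Kruppel-like factors in Nrf2-/- against WT cells, both treated with SFN (vertical axis), under isosmotic conditions (dark red) and after 1 h of stress (orange). Bars are edgeR estimates with their SE, and filled bars passed adjusted p under 0.05. Klf4 is the tallest bar under isosmotic conditions (2.50), and Klf13 (1.29) is the tallest at 1 h.

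Within Nrf2-/- cells, 1 h of stress lowered Klf10 (log2 -0.52, SE 0.10, edgeR adjusted p = 0.00436), Klf7 (-0.51, SE 0.12, 0.0230) and Klf2 (-0.70, SE 0.20, 0.0449) and raised Klf4 (0.51, SE 0.14, 0.0449), with 7.17% of all genes called, 4.36% higher and 2.81% lower. Klf10 alone was called whichever library was left out. The call of Klf2 was lost without any 1 of 13 libraries and that of Klf4 without any 1 of 15. Without replicate 2 at 1 h, all 9 members tested were called, 8 of them lower, while the number of all genes called went from 1399 to 4554, 1834 of them lower. Without replicate 1 at 1 h, 3 members were called (Klf10 and Klf7 lower, Klf13 higher), with 5079 of all genes. Without replicate 1 or replicate 2 of the isosmotic Nrf2-/- libraries, only Klf10 was called, with 643 and 538 of all genes. With only the 4 libraries compared, 0 were called, as were 0.045% of all genes. Klf13 (76.5 and 59.6 CPM before, 49.4 and 91.0 CPM after), Klf6 and Klf9 overlapped between the groups, and Klf5 had a log2 fold change of -0.35 (edgeR adjusted p = 0.0647).

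The response to 1 h of stress differed between Nrf2-/- and WT cells with SFN for 1 of 9 members, against 0.123% of all genes, 0.0615% in each direction. Before stress, Klf4 was at 6.35 CPM in WT and 35.8 CPM in Nrf2-/- cells with SFN, and at 1 h it was at 27.4 and 51.0 CPM. Klf4 thus rose 4.33-fold in WT and 1.42-fold in Nrf2-/- cells, from unequal levels, a difference in log2 of -1.60 (SE 0.21, edgeR adjusted p = 0.00585). The difference was called whichever library was left out, and 2 or 3 members were called without replicate 1 or replicate 2 of the Nrf2-/- 1 h libraries, where 2072 and 1226 of all genes were called in place of 24. With only the 8 libraries of the groups involved it was -1.60 and not called (edgeR adjusted p = 0.467), as was 0% of all genes. Klf7 had a difference of -0.43 (0.586).

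The order of the 8 groups differed between members. For Klf10 the order from highest to lowest was WT DMSO isosmotic (154 CPM), Nrf2-/- SFN isosmotic (105 CPM), WT SFN 6 h (87.1 CPM), WT DMSO 6 h (78.2 CPM), Nrf2-/- SFN 1 h (73.2 CPM), WT SFN isosmotic (54.2 CPM), WT DMSO 1 h (40.3 CPM) and WT SFN 1 h (38.9 CPM). Of these neighbours, only the libraries of WT DMSO 6 h and Nrf2-/- SFN 1 h overlapped. Klf4 had no overlap between neighbours, from 102 CPM at WT SFN 6 h to 6.35 CPM at WT SFN isosmotic, a 16.03-fold range and the widest of the members. Neighbours without overlap were not all called as different. With SFN against DMSO, Klf4 was not called at 1 h (log2 -0.09) or 6 h (log2 0.10), nor was Klf10 (log2 -0.05 and 0.16). The share of all genes so separated was not counted. Klf13 ranged 7.51-fold, Klf9 5.46-fold, Klf5 4.74-fold, Klf10 3.96-fold, Klf3 3.54-fold, Klf7 2.70-fold, Klf2 2.33-fold and Klf6 2.18-fold. For Klf2 the 3 isosmotic groups were above the 5 stressed groups, and all 5 stressed groups overlapped with their neighbours. For Klf13 both 6 h groups (215 and 212 CPM) overlapped and lay above every other group.

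Over the 8 group means of log2 CPM, the members fell into alike pairs. Klf9 and Klf13 had a Pearson correlation of 0.99, Klf7 and Klf10 of 0.96, Klf3 and Klf13 of 0.95, and Klf3 and Klf5 of 0.95, whereas Klf2 and Klf4 had the lowest at -0.77. These are descriptions over 8 points that share libraries. Among 10233 genes with a mean of at least 5 CPM, the genes most like Klf10 were Bhlhe40, a circadian repressor (0.98), Slc30a1, a zinc exporter (0.98), and Klf7 (0.96). The genes most like Klf7 were Klf10, Slc30a1 (0.95) and Bhlhe40 (0.94).

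Of the 7 other Kruppel-like factors listed, 5 were tested (Klf1, Klf8, Klf11, Klf12 and Klf16), and Klf14 and Klf17 had under 0.1 CPM in every library. In WT cells with DMSO, 1 was higher and 2 were lower at 1 h, and 3 were higher at 6 h. Among all genes, 7.1% were higher and 4.11% lower at 1 h, and 23.9% were higher and 22% lower at 6 h. Klf11, a relative of Klf10, was at 14.1 and 13.6 CPM under isosmotic conditions, 6.83 and 5.56 CPM at 1 h (log2 -1.15, edgeR adjusted p = 0.000714) and 31.8 and 29.8 CPM at 6 h (log2 1.16). It was also lower with SFN (5.36 and 5.28 CPM, log2 -1.38, edgeR adjusted p = 0.000425) and higher in Nrf2-/- than in WT cells with SFN (12.3 and 14.9 CPM, log2 1.35). Klf16, another Sin3A-binding member, was at 115 and 119.8 CPM, 80.9 and 80.5 CPM at 1 h and 394 and 398.5 CPM at 6 h (log2 1.75, SE 0.13, edgeR adjusted p = 1.30e-07). Klf8 rose from 0.24 and 0.71 to 1.15 and 1.51 CPM at 1 h. The related Sp factors, which bind the same GC boxes, gave 1 higher and 2 lower of 8 tested at 1 h and 5 higher and 0 lower at 6 h, with Sp1 at 119 and 296 CPM before and at 6 h (log2 1.31) and Sp4 at 7.18 and 23.1 CPM (log2 1.69).

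Partners and regulators of the family were counted by list in WT cells with DMSO, where 11.2% of all genes were called at 1 h and 45.9% at 6 h. Of 10 corepressor genes, 0 were called at 1 h and 4 at 6 h (3 higher), with Sin3a higher at 6 h (53.1 to 115 CPM, log2 1.12). At 1 h 2 of those 10 had an unadjusted p under 0.05. Of 4 acetyltransferase genes, 2 were higher at 1 h, Ep300 (129 to 213 CPM, log2 0.72) and Crebbp (81.5 to 106 CPM, log2 0.38), and at 6 h 2 were higher and 2 lower. Of 5 ubiquitin ligase genes that act on Kruppel-like factors, 0 were called at 1 h (2 at an unadjusted p under 0.05) and 3 at 6 h, with Btrc lower (37.0 to 10.3 CPM, log2 -1.84). Of 7 genes of the ERK5 and MEF2 pathway, which induces Klf2 and Klf4 in endothelium, 0 were called at 1 h (2 at an unadjusted p under 0.05) and all 7 at 6 h, 5 higher and 2 lower. Mapk7, the gene of ERK5, went from 52.0 to 139 CPM at 6 h (log2 1.42, SE 0.15). With SFN, none of these 4 lists had a called gene under isosmotic conditions (2, 1, 0 and 1 at an unadjusted p under 0.05), against 2.84% of all genes.

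Of 9 tested genes of the glucocorticoid response, which includes Klf9 as a target, 1 was higher and 2 were lower at 1 h, and 4 were higher and 1 was lower at 6 h, against 7.1% and 4.11% of all genes at 1 h and 23.9% and 22% at 6 h. Sgk1, a kinase that is also induced by hypertonicity, was at 37.6, 65.5 and 682 CPM under isosmotic conditions, at 1 h and at 6 h, and Per1 was at 45.2, 31.8 and 184 CPM. Of 11 genes of the TGF-beta pathway, of which Klf10 is an early target, 2 were lower at 1 h, among them Skil (234 to 147 CPM, log2 -0.67), and at 6 h 4 were higher and 3 lower. Under SFN alone, Smad7 was the only TGF-beta gene called (129.7 to 59.6 CPM, log2 -1.12, edgeR adjusted p = 0.00105). Of 6 genes known as targets of Kruppel-like factors, 2 were lower at 1 h, 3 were higher and 2 lower at 6 h, and 3 were lower with SFN, which lowered 1.76% of all genes. Thbd, the thrombomodulin gene and a target of Klf2 and Klf4, was at 19.8 CPM under isosmotic conditions, 9.95 CPM at 1 h (edgeR adjusted p = 6.85e-05), 205 CPM at 6 h (log2 3.37) and 9.35 CPM with SFN (log2 -1.08). Cdkn1a, the cell cycle inhibitor p21 induced by Klf4 and Klf6, was at 87.2 CPM under isosmotic conditions and 48.2 CPM at 1 h (log2 -0.85).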

How the data were processed

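Total RNA from mIMCD3 cells was sequenced in 16 libraries, 2 biological replicates for each of 8 groups taken from the sample labels. The deposited values are raw counts per gene, which the authors made by aligning reads to mm10 and counting with featureCounts. The study names Hisat2 as aligner, whereas the submitters' processing notes list Bowtie2 and SAMtools, and versions and strand setting are not given in the sources used here. Lines without a gene name (at most 3 per library, with 0 counts) were left out. All groups were fitted together with edgeR 4.0.16 in R 4.3.3 (TMM, filterByExpr, robust quasi-likelihood F-test, Benjamini-Hochberg over 19509 genes), with SE taken as the absolute log2 fold change over the square root of F. Replicate labels give no culture or day, so p-values cover only the spread between these samples. The fit was run on simulated counts with an equal spread in every group, which does not cover the unequal spread of these groups.

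Alternatives were DESeq2 1.42.0, other scalings and filters, fewer libraries in the fit, a replicate block and leaving out each library. The members and all gene lists were chosen with earlier results of these data known. All members are named. From other lists, at most the 3 called genes with the largest change in a comparison are named, and for the 3 members that changed most at 1 h the 3 genes with the most similar group means are named, with marker, check and overlapping genes in addition. Some genes under these rules are not reported here. Epcam, Pax2, Ptprc, Pecam1 and the low-level Klf genes were named after their values were seen where no rule covers them.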

Additional observations from a re-analysis of the deposited data

Results flagged for a closer look

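The effect of SFN differed between stressed and isosmotic WT cells, by the test of the difference itself (log2, edgeR with Benjamini-Hochberg adjustment over all genes). At 1 h the differences that passed were 1.46 for Klf10, 1.35 for Klf7, 1.09 for Klf4 and 0.79 for Klf5. At 6 h they were 1.66 for Klf10, 1.27 for Klf4, 1.23 for Klf6 and 1.19 for Klf7. Both sets use the same isosmotic libraries with SFN and DMSO, so they are not separate evidence. The calls of Klf4 at both times, Klf5 at 1 h and Klf6 at 6 h depended on single libraries. The response of Klf4 to 1 h of stress also differed between Nrf2-/- and WT cells with SFN, by -1.60. This value involves the Nrf2-/- 1 h libraries, which were at 60.8 and 41.2 CPM for Klf4, and no cause was tested. Klf4 was higher in Nrf2-/- than in WT cells with SFN before stress (35.8 against 6.35 CPM) and at 1 h (51.0 against 27.4 CPM).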

How the results depend on the processing

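For members that passed the test, no fold change turned its sign under the alternatives run. Klf13 under 1 h of stress in Nrf2-/- cells, which was not called, was called higher without replicate 1 and lower without replicate 2 of the 1 h libraries. Counts of members called moved by more than 1.5 times in 8 of the 14 comparisons, and the causes were not tested. With only the 12 WT libraries, 4 members were called for 1 h of stress with SFN in place of 2, and 1 for SFN against DMSO at 1 h in place of 0. With only the libraries compared, the counts were 4 for 1 h of stress with SFN, 1 for SFN at 1 h, 1 for SFN at 6 h, 1 for Nrf2-/- against WT at 1 h in place of 7, 0 for stress in Nrf2-/- cells in place of 4 and 0 for the difference in stress response between genotypes in place of 1. With at least 10 counts in every library, 1 member was called for stress in Nrf2-/- cells. With library totals alone, 2 were called for the difference in SFN effect at 1 h in place of 4.

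Leaving out 1 library at a time gave 1 to 4 members called for 1 h of stress with SFN, 0 to 1 for SFN at 1 h, 1 to 9 for stress in Nrf2-/- cells, 2 to 5 for the differences in SFN effect at 1 h and at 6 h, and 1 to 3 for the difference between genotypes. In the other comparisons the count stayed within 1.5 times. Without either Nrf2-/- 1 h library, Klf3, Klf9 and Klf13 were called for 1 h of stress with DMSO, and Klf5 and Klf13 for SFN under isosmotic conditions.

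No strong pairing by replicate number was seen, although this check cannot show whether same-numbered libraries were cultured or processed together. Over 28 pairs of groups, same-numbered libraries had correlated deviations from -0.0794 to 0.1233, with 1 value over 0.1. With the replicate block, 3 in place of 4 members were called both for stress in Nrf2-/- cells and for the difference in SFN effect at 1 h, and no other count changed. Klf15, with 30 counts in all and no library above 6, was too low to be tested.

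The number of all genes called also moved by more than 1.5 times in 10 comparisons. Without leaving out single libraries it ran from 654 to 4334 for 1 h of stress with DMSO (2186 as reported), 535 to 3466 with SFN (1857), 7 to 2130 in Nrf2-/- cells (1399), 440 to 2875 for SFN under isosmotic conditions (555), 13 to 809 for SFN at 1 h (18), 2 to 106 for SFN at 6 h (8), 1651 to 6519 for Nrf2-/- against WT at 1 h (6154), 83 to 585 and 129 to 803 for the differences in SFN effect at 1 h and 6 h (109 and 148), and 0 to 160 for the difference between genotypes (24).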
